A study of Mus musculus with 10 samples.

Results

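The 3′ part of mouse 28S ribosomal RNA (rRNA) was examined position by position for ribose 2′-O-methylation. Its 1577 positions were taken by number alone, as 45S precursor positions 11276 to 12852, which are 28S nucleotides 3154 to 4730 when 8122 is subtracted. They are 1577 of the 13400 positions listed for the 45S precursor and of 13591 positions listed in all. Nucleotides are called by their 28S number below, as the tables list them. The sources used here do not state whether a listed position is the methylated nucleotide itself or the one beside it, so a number given here may be off by a nucleotide from the modified ribose. The end of 28S that holds the peptidyl transferase centre gave the region its name, but no 28S sequence was used here. Base identities, helices and the place of that centre in this numbering are therefore not assigned.

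The study profiled 10 RiboMeth-seq libraries of mouse cells in 5 groups of 2. One group is untreated embryonic stem cells (ESCs) grown with serum and leukemia inhibitory factor. The other 4 groups are neurons that the ESCs became when doxycycline switched on Ngn2, a neurogenic transcription factor. All 8 neuron libraries received a 5-10-5 MOE gapmer antisense oligonucleotide (ASO) at 10 uM by free uptake, and RNA was taken 72 to 96 hours later. In one set the ASO was directed at the small nucleolar RNA (snoRNA) Snord101, in the other at Snord89, and each set had controls given a non-targeting ASO. Each snoRNA was targeted with 1 ASO, the strain and the sequence of the non-targeting ASO are not given in the sources used here, and the level of either snoRNA was not analysed here. Libraries A and B of a group are labelled as biological replicates, and no pair agreed within sampling noise over the region (lowest chi-square per degree of freedom 37.1, in ESCs).

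The large-subunit rRNA catalyses peptide bond formation at the peptidyl transferase centre, and its 3′ part also lines the paths taken by the bound tRNAs. Many riboses in these parts carry a methyl group on the 2′ oxygen. Box C/D snoRNAs, the family to which Snord101 and Snord89 belong, base-pair with the rRNA and direct the methyltransferase fibrillarin to a single nucleotide. RiboMeth-seq reads this modification by its absence from alkaline hydrolysis: the bond beside a methylated ribose is not cut, and few fragments end there.

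The Snord101 ASO is shown because the change at nucleotide 3283 described below was measured with it. Capitals mark the central gap of 10 bases, the part of a gapmer that recruits RNase H to the paired RNA. The lower-case wings hold 5 bases each.
Snord101 ASO: gggtaTCCGACAATTcaagt
This ASO is 20 bases long, with 9 G or C bases.

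The measure at each position is a score from 0 to 1. It is 1 minus the number of read ends at the position divided by a weighted average of the nearest 12 positions, 6 upstream and 6 downstream (the flanking mean). A score near 1 is a protected bond, and a score of 0 means at least as many ends as the neighbours had. A high score is called here at 0.75, in every library named and with a flanking mean of at least 10 ends. The ESC table counts 5′ ends alone and the neuron tables add 5′ and 3′ ends, so ESC and neuron scores are different measures and were not tested against each other.

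The region held 4793350 and 3988703 ends in the ESC libraries and between 19358234 and 33002468 in the neuron libraries. The median flanking mean was 1214 and 1040 ends in ESCs and ranged from 9146 to 17028 in neurons. All 1577 positions reached a flanking mean of 10 in 6 neuron libraries and 1576 did so in both Snord101 ASO libraries, against 1479 and 1470 in the ESC libraries. Scores of the paired libraries correlated across positions with Pearson's r of 0.945 in ESCs and from 0.949 to 0.987 in the neuron groups, where positions are not independent replicates. Control A of the Snord101 set stood apart from its partner, control B. At nucleotide 3583 control A had 489299 ends against 110409 in control B, and at nucleotide 3160 it had 94628 against 12868. Its r with the Snord101 ASO libraries was 0.929 and 0.930, whereas control B had 0.976 and 0.964. For the calls, counts and peaks of the Snord101 set that move without control A, the values without it are also given.

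The share of all 45S ends that fell in the region was 22.7% and 23.1% in the Snord101-set controls and 23.7% and 23.4% in the Snord101 ASO libraries. It was 24.1% and 24.3% in the Snord89-set controls and 24.7% and 24.5% in the Snord89 ASO libraries. In both sets the ASO libraries lay above their controls without overlap, by 0.640 and 0.385 percentage points (0.479 in the Snord101 set without control A). The exact two-sided permutation test gave p = 0.333 in each, the smallest value that 2 libraries against 2 allow.

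Fewer positions scored high in all control neuron libraries than in both ESC libraries, and those seen in both were spread unevenly along the region. A high score was found at 208 positions in both ESC libraries (13.2% of the region) and at 56 positions in all 4 control neuron libraries (3.55%). These counts are not like for like, because the control set asks for more libraries, which are deeper and count other ends. With a flanking minimum of 100 the counts were 164 and 56. The sets shared 41 positions, which is 19.7% of the ESC set and 73.2% of the control set. In the 3153 nucleotides of 28S before the region the shares were 12.5% in ESCs and 1.87% in controls, a difference given as counts alone because positions are not replicates. At a score of 0.9 the region had 89 positions in ESCs, 40 in controls and 23 in all 10 libraries.

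**Figure D1:**
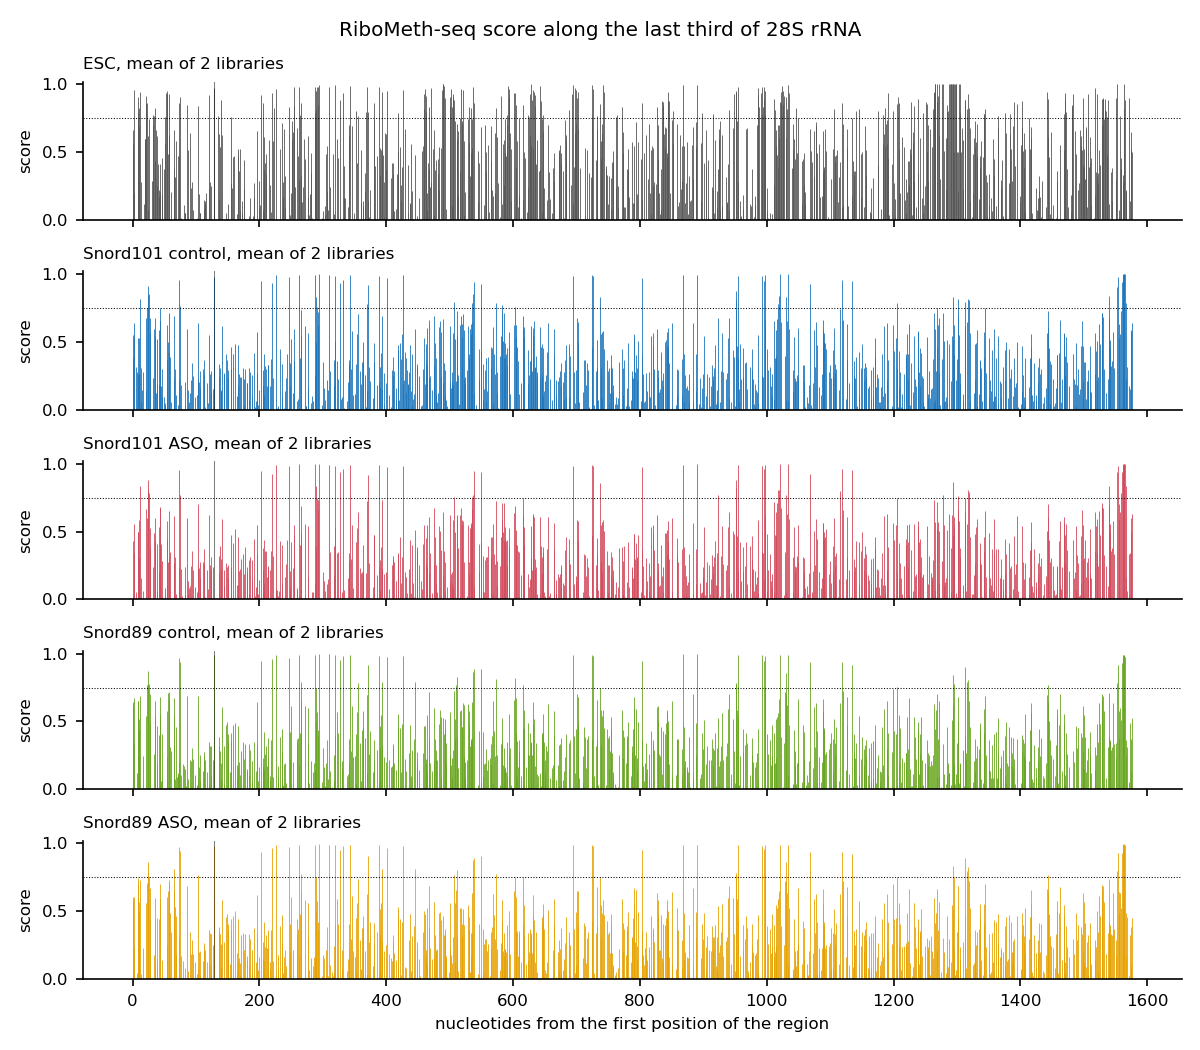
Mean score (y axis, 0 to 1) of each group of 2 libraries at the 1577 positions of the region, plotted by distance in nucleotides from its first position (x axis). The dotted line is the score of 0.75 and the vertical line marks nucleotide 3283, at distance 129, where the Snord101 ASO panel alone lacks a bar. The ESC panel holds more high bars than any neuron panel.

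The 23 positions at or above 0.9 in all 10 libraries ran from nucleotide 3357 to nucleotide 4188, with a median spacing of 19.5 nucleotides. They lay in 3 groups separated by the widest gaps. The first group held nucleotides 3357, 3374, 3380, 3416, 3441, 3448, 3464, 3474, 3486, 3497, 3543, 3555 and 3581. A gap of 267 nucleotides followed, and then came 3848, 3879 and 3880. After a gap of 142 nucleotides came 4022, 4044, 4108, 4146, 4150, 4151 and 4188. Among full windows of 100 nucleotides, 3354 to 3453 and 3454 to 3553 held the most high control positions, 7 each. The last window, 4654 to 4730, has only 77 nucleotides and held 8, of which 6 lie past a peak of ends described below. The window from 4554 to 4653 held 0, although it took 12.9% of the region's control ends.

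These positions were chosen by their scores in all 10 libraries, so their narrow ranges are a description. Nucleotide 3448 scored 0.996 and 0.991 in ESCs, 0.998 and 0.997 in the Snord101-set controls and 0.994 and 0.996 in the Snord89-set controls. Its ASO libraries gave 0.998 and 0.998 for Snord101 and 0.995 and 0.994 for Snord89. The ratio of ends to flanking mean behind these scores ran from 0.00208 to 0.00906. Nucleotide 4188 ranged from 0.991 to 0.998 and nucleotides 3879 and 4022 each from 0.991 to 0.995 over the 10 libraries. The lowest of the 23 was nucleotide 3357, which ranged from 0.917 to 0.954. The median score over these positions was 0.988, and the median SD over the 4 controls was 0.00237.

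Adjacent methylated riboses are a known feature of large-subunit rRNA, and 2 adjacent pairs appeared among the 23. Nucleotide 3879 scored 0.993 ± 0.000528 (SD, n = 2) in ESCs and its neighbour 3880 scored 0.967 ± 0.000374 (SD, n = 2). In the 4 controls the pair had 0.993 ± 0.00153 and 0.985 ± 0.00145 (SD, n = 4), so 3880 was the lower in both tables. The other pair, 4150 and 4151, changed order between the tables. Nucleotide 4150 had 0.979 ± 0.0064 and nucleotide 4151 had 0.947 ± 0.00112 in ESCs (SD, n = 2 each). In the controls nucleotide 4150 had 0.947 ± 0.00577 and nucleotide 4151 had 0.987 ± 0.00448 (SD, n = 4 each). Each neighbour enters the flanking mean of the other, so the 2 scores of a pair are not independent.

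**Figure D2:**
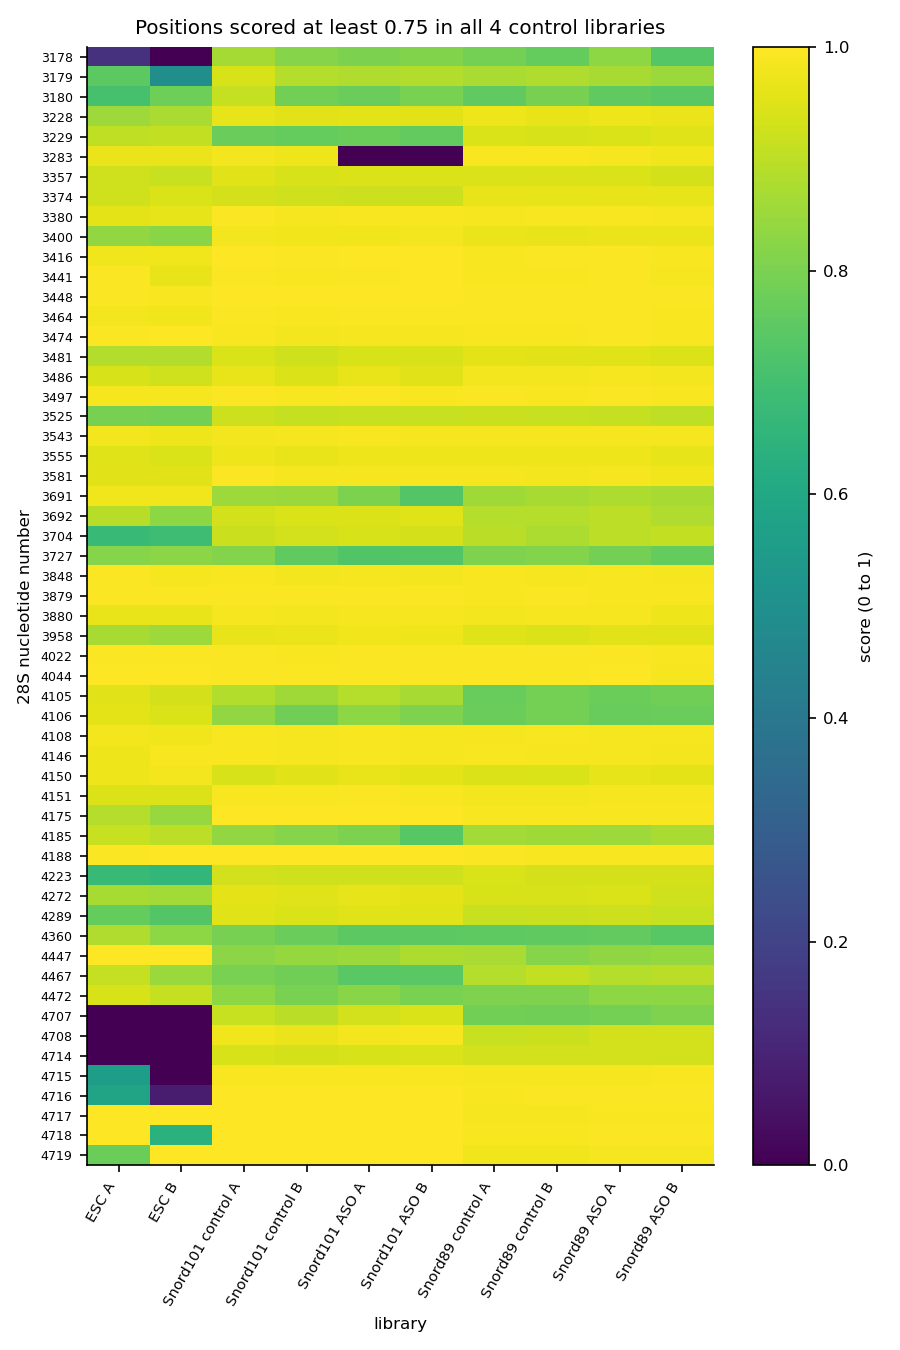
Score (colour, 0 to 1) of the 56 positions scored at least 0.75 in all 4 control libraries (rows, by 28S nucleotide) in each of the 10 libraries (columns). Nucleotide 3283 is dark in both Snord101 ASO libraries, and nucleotides 3178, 4707, 4708 and 4714 are dark in both ESC libraries.

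Some positions were well protected in control neurons and scored lower in ESCs. Nucleotide 4223 had 0.679 and 0.664 in ESCs, against 0.931 and 0.927 in the Snord101-set controls and 0.943 and 0.935 in the Snord89-set controls. Its ends in ESCs were 878 and 862 against flanking means of 2731 and 2564, so the ESC value does not rest on low counts. Nucleotide 4289 had 0.749 ± 0.0227 in ESCs (SD, n = 2) and 0.933 ± 0.0177 in controls (SD, n = 4). At nucleotide 3704 the values were 0.685 ± 0.00768 and 0.906 ± 0.0244 (SD, n = 2 and 4), and at nucleotide 4175 they were 0.867 ± 0.0301 and 0.993 ± 0.0046 (SD, n = 2 and 4). The ESC value at nucleotide 4175 rests on 6 and 6 ends against flanking means of 53.7 and 38.9. At these 4 positions both ESC libraries lay below all 4 controls. The count of ends differs between the tables, and its part in these gaps was not tested.

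Other positions scored high in ESCs and low in neurons. Of the 89 positions at 0.9 or more in both ESC libraries with enough flanking ends, 30 had a high score in all 4 controls, 19 were below 0.25 in all 4 and 12 of those were at 0 in all 4. Over the whole region 3.55% of positions were high in all 4 controls. Each control library taken alone scored 0 at 38.9% to 41.7% of the region's positions, so low neuron scores are common in the region. Nucleotide 3613 scored 0.938 and 0.924 in ESCs, with 100 ends in each library, and 0 in every neuron library, where ends ranged from 21357 to 166420. Nucleotide 3847 scored 0.937 and 0.924 in ESCs and 0 in all 8 neuron libraries. It lies beside nucleotide 3848, one of the 23, which ranged from 0.984 to 0.994 over all libraries.

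Several ESC scores of 1 rest on hardly any ends. Both ESC libraries had a flanking mean under 10 at 94 positions, which fell in 9 stretches. The longest ran from nucleotide 4434 to nucleotide 4461 and held 106 and 75 ESC ends in all, against 10510 to 40488 ends in the neuron libraries. Nucleotide 4447, inside it, scored 1 in both ESC libraries with flanking means of 0.167 and 0.333 ends, and was left out of the ESC set. It ranged from 0.817 to 0.878 in neurons.

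The end of 28S gave a further group of high scores next to a single peak of ends. At nucleotide 4713 the neuron libraries had from 130339 to 387044 ends, the highest ratio of ends to flanking mean in the region, whereas ESC libraries had 1 and 3. Beyond it the 17 remaining positions held only 2629 to 3915 ends per neuron library. Nucleotides 4714 to 4719 scored from 0.932 upward in the neuron libraries, and the peak enters the flanking mean of each of these 6 positions. Nucleotide 4717 reached 0.9 in all 10 libraries, but its ESC flanking means were 3.1 and 2.6 ends. Without nucleotide 4713 and what follows, the control set fell from 56 to 50 positions, and 41 of those 50 were also high in ESCs. The other 9 were nucleotides 3178, 3179, 3180, 3704, 4223, 4289, 4447, 4707 and 4708. The last 2 precede the peak by at most 6 nucleotides and take it into their flanking means as well.

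**Figure D3:**
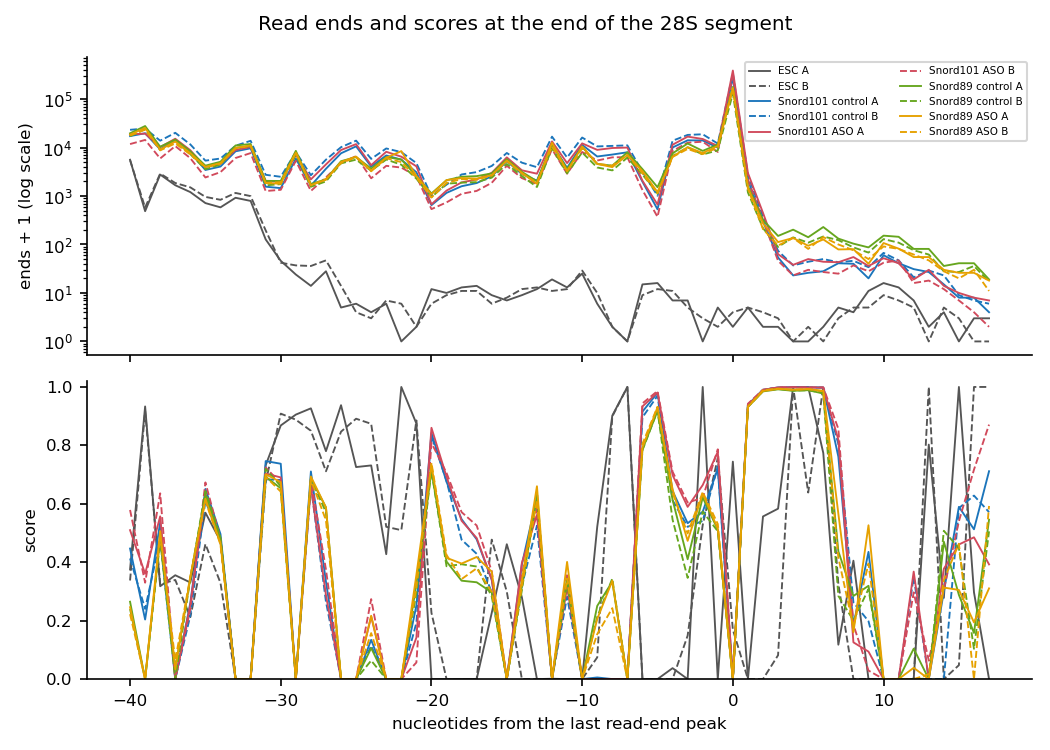
Ends plus 1 (upper panel, log scale) and score (lower panel) by distance in nucleotides from the peak at nucleotide 4713, 1 line per library. The 8 neuron lines peak at distance 0 and score above 0.93 just beyond it, whereas the ESC lines have few ends there.

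Other strong read-end peaks were also examined. The 5 highest by mean ratio in the controls were nucleotides 4713, 3160, 3583, 3776 and 3681, all with a score of 0 in each neuron library. Their control values chose them, so the choice itself favours lower ratios in the ASO libraries. At nucleotide 3583 the Snord101-set controls had 489299 and 110409 ends and the ASO libraries 46932 and 37571. In the Snord89 set the controls had 59500 and 106041 and the ASO libraries 39995 and 35477. In both sets the ASO libraries were below their controls, but neither comparison passed the test used below (log2 end ratio -2.12 with edgeR adjusted p = 0.235, and -0.79 with edgeR adjusted p = 0.225). Without control A the Snord101 ratio was -0.87, with control B as the single control. Ends at nucleotide 3681 likewise fell short of the threshold, with log2 end ratios of -0.81 and -0.70 (edgeR adjusted p = 0.257 and 0.166), and the first was -0.37 without control A. At nucleotide 4713 the ratio of ends to flanking mean was 56.0 and 52.6 in the Snord101-set controls and 68.9 and 69.5 with the ASO, and 40.8 and 37.0 against 43.9 and 45.1 in the Snord89 set. It was higher without overlap in both sets and passed in neither (log2 end ratio 0.35 and 0.19, edgeR adjusted p = 0.0932 and 0.286). Without control A the log2 end ratio of the Snord101 set was 0.40 there. Nucleotide 3160 had -0.55 and -0.07 (edgeR adjusted p = 0.593 and 0.858), and the first turned to 0.24 without control A. Nucleotide 3776 had -0.91 and -0.35 (edgeR adjusted p = 0.246 and 0.557), and the first was -0.46 without control A. Without control B the Snord101 ratios were -1.06 at nucleotide 3160, -2.78 at 3583, -1.26 at 3776, -1.14 at 3681 and 0.31 at 4713.

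The 2 sets of control neurons were both given a non-targeting ASO and are set side by side here. Over the 50 high positions before the end peak, the mean score differed between the sets by a median of 0.00955, and 43 positions were within 0.05. Scores of at least 0.75 in these same controls chose the 50, which limits how far the sets can differ. Other positions were not compared in this way. On the end ratio itself, which the score compresses near 1, 9 of the 50 differed by at least 1 on the log2 scale, from -1.94 at nucleotide 4175 to 1.97 at nucleotide 3229. At 3 positions the sets differed by 0.1 or more. The widest gap was at nucleotide 3229, with 0.773 and 0.762 in the Snord101-set controls and 0.943 and 0.938 in the Snord89-set controls. The ASO libraries followed their own sets, with 0.775 and 0.760 for Snord101 and 0.942 and 0.951 for Snord89, and ESCs had 0.904 and 0.907. All 4 libraries of one set thus lay below all 4 of the other. The flanking means at nucleotide 3229 also differed, from 16238 to 22047 ends in the Snord101 set and from 2596 to 5278 in the Snord89 set. Its neighbour, nucleotide 3228, ranged from 0.956 to 0.976 over the 8 neuron libraries. Nucleotide 4467 had 0.792 ± 0.0118 and 0.898 ± 0.0146 (SD, n = 2 each), and nucleotide 4707, next to the end peak, had 0.906 ± 0.014 and 0.785 ± 0.00174 (SD, n = 2 each). The sets come from separate tables and share no library, and their gap was not tested.

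Treatment with the Snord101 ASO was compared with control ASO to find positions that lose protection, and the test called 1 such position in the region. Nucleotide 3283, at 45S position 11405, scored 0.984 and 0.975 in the Snord101-set controls and 0 in both Snord101 ASO libraries. Ends rose from 744 and 1332 to 76201 and 52968, while the flanking means were 46640 and 54076 in the controls and 58151 and 40692 with the ASO. The ratio of ends to flanking mean went from 0.016 and 0.0246 to 1.31 and 1.30, with no overlap. Per 1000000 ends on the 45S, the position itself took 5.43 and 9.30 in the controls and 570 and 537 with the ASO, whereas its flanking mean took 340 and 378 in the controls and 435 and 413 with the ASO. With the ASO, the position's ratio stood at the 78.3 and 78.1 percentiles of the region, so its ends were above those of most positions without being a peak.

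The ratio was tested with quasi-likelihood fits in edgeR, with the flanking mean as offset to the end counts and Benjamini-Hochberg adjustment over 12997 positions. It rose by a log2 end ratio of 6.01 with SE 0.23 (edgeR adjusted p = 0.00476) and was higher in 2 of 2 ASO libraries. Without control A it was 5.73 and passed. The call was lost with limma on the log scale (log2 ratio 6.04, limma adjusted p = 0.0869). It was also lost in the edgeR fit without Snord101 ASO library A (adjusted p = 0.719) or library B (adjusted p = 0.548), where 1 library stands for the arm and is assumed to vary like the others. Over the 8 alternatives that kept all 4 libraries and tested the position, 7 passed, with adjusted p from 4.72e-180 in DESeq2 to 0.0869.

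**Figure D4:**
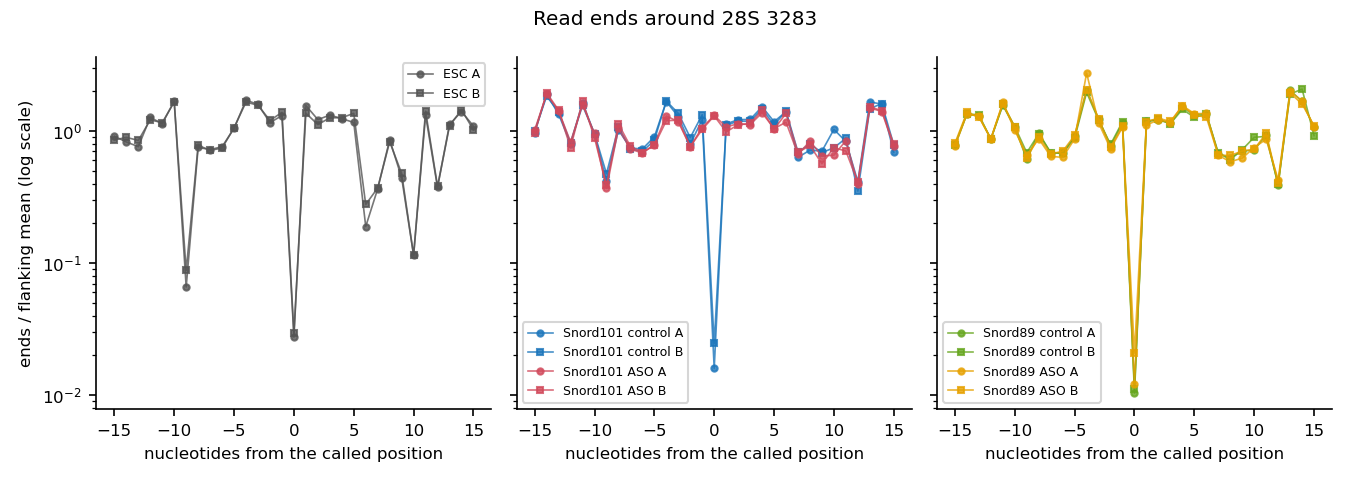
Ratio of ends to flanking mean (y axis, log scale) within 15 nucleotides of nucleotide 3283 (x axis, distance in nucleotides), 1 line per library, for ESCs, the Snord101 set and the Snord89 set. The dip at distance 0 is present in all libraries but the 2 of the Snord101 ASO, which lie at 1.31 and 1.30, while the other positions run together in each set.

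Of the positions in that window, nucleotide 3283 was the 1 that passed. Over the 12 flanking positions, score differences between ASO and controls ranged from 0 to 0.0916 and log2 end ratios from -0.43 to -0.07. None of the 12 passed (lowest edgeR adjusted p = 0.0942, at nucleotide 3279). All 12 ratios were below 0, and the ends gained at nucleotide 3283 enter each of their flanking means. At nucleotide 3289, the last of the 12, ESCs scored 0.811 and 0.722, whereas every neuron library was at 0. Nucleotide 3283 itself scored 0.972 and 0.971 in ESCs.

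In the Snord89 set nucleotide 3283 scored high throughout. It had 0.990 and 0.989 in the controls and 0.988 and 0.979 with the Snord89 ASO, from 417 and 422 ends to 512 and 769. The log2 end ratio of 0.61 (SE 0.23) did not pass the test (edgeR adjusted p = 0.470 over 13141 positions). It was 0.96 without Snord89 ASO library A and 0.18 without library B, and passed in neither. The contrast between the effects of the ASOs was fitted over the 8 neuron libraries. It gave a log2 difference of 5.39 at this nucleotide (SE 0.37, edgeR adjusted p = 0.00186), with more ends in 2 of 2 Snord101 ASO libraries than in any other neuron library. It was the 1 call among 1577 positions of the region (0.0634%), where 0.0693% of 12987 positions were called over the whole table. At an unadjusted p under 0.05 there were 106 in the region, where 7.01% were past it over the whole table. The contrast missed the threshold with limma on the log scale (5.47, limma adjusted p = 0.0544) and without Snord101 ASO library B (5.40, edgeR adjusted p = 0.0501). It passed in 15 of 17 alternatives. Without Snord101-set control B the region had 80 calls (5.07%, against 4.82% of all positions) and without control A it had 3 (0.19%, against 0.116%), and without Snord101 ASO library B there were 0 (55 at an unadjusted p under 0.05).

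**Figure D5:**
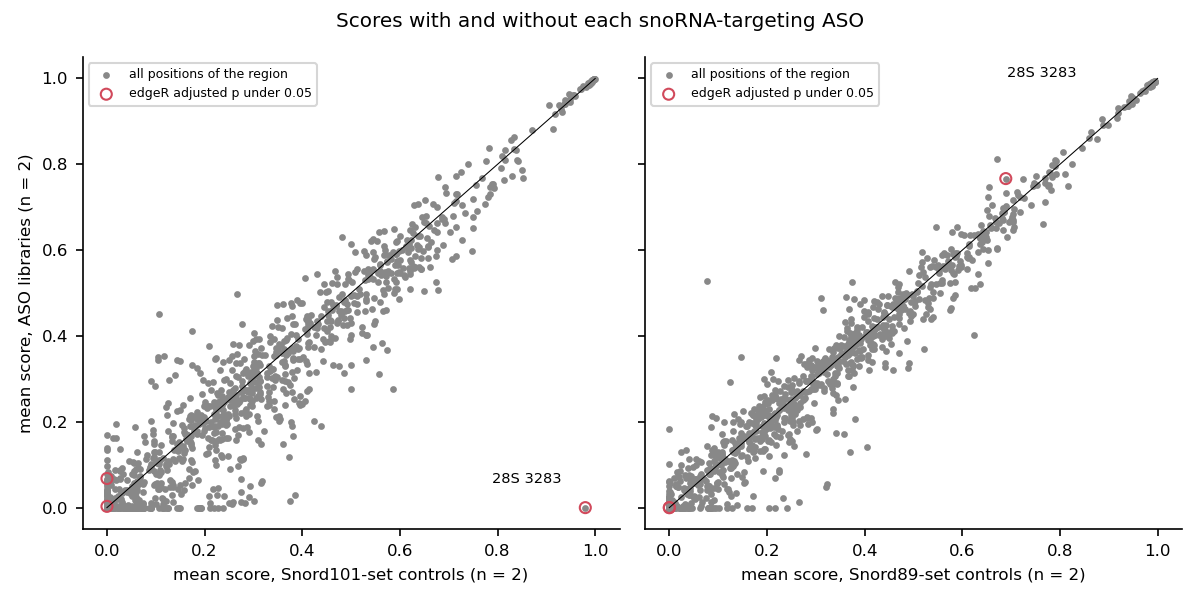
Mean score with the ASO (y axis, n = 2) against mean score in the controls (x axis, n = 2) for the 1577 positions, for Snord101 (left) and Snord89 (right). Circles mark positions with an edgeR adjusted p under 0.05 and the line marks equal scores. Nucleotide 3283 falls to 0 in the left panel and stays near the upper end of the line in the right panel.

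Apart from nucleotide 3283, no position with a high score in all 4 controls was called in the Snord101 comparison. The test called 3 of 1576 positions (0.190%), 1 with more and 2 with fewer ends, where 0.369% of all 12997 positions were called, 0.0923% with more and 0.277% with fewer ends, so the region's share was not above the background. At an unadjusted p under 0.05 there were 193 in the region, against 12.8% of all positions. The calls with fewer ends were nucleotides 4527 and 3458, which are not protected positions. At nucleotide 4527 the ratio of ends to flanking mean went from 1.78 and 1.53 to 0.955 and 0.909, which moved the score from 0 in both controls to 0.0446 and 0.0912 (edgeR adjusted p = 0.0489, log2 end ratio -0.83 with SE 0.10). At nucleotide 3458, singled out after its values were seen because its scores overlapped, the ratio went from 1.49 and 1.47 to 1.01 and 0.994 (edgeR adjusted p = 0.0477, log2 end ratio -0.57 with SE 0.06). Each of these 2 calls held in 5 of 12 alternatives. With library size and TMM factors in place of the flanking mean, the ratios were -0.34 at nucleotide 4527 and -0.28 at nucleotide 3458 (edgeR adjusted p = 0.587 and 0.453). The region's count was 90 without Snord101-set control A (5.71%, against 6.46% of all positions) and 370 without control B (23.5%, against 25.5%), and 0 without ASO library A or without library B (103 and 47 at an unadjusted p under 0.05).

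By effect size, 95 of 1576 positions of the region (6.03%) were lower by at least 0.1 in the Snord101 ASO libraries without overlap, and 38 were higher. Over the 45S the lower share was 11.0% and the higher share 4.57%. Among positions with a high score in both Snord101-set controls the region had 1 of 68, nucleotide 3283, against a background of 14.2%. At a score of 0.9 in both it had 1 of 42, against 2.78%. Without control A the order of the first counts turned, with 42 lower and 68 higher in the region (8.93% and 7.47% over the 45S). The counts among high positions were then 2 of 70, nucleotides 3220 and 3283, against 14.4% over the 45S, and 1 of 42, against 3.40%. Without control B they were 211 lower and 51 higher (13.4% and 3.24% of the region, against 22.7% and 6.03%). Among high positions they were then 16 of 88, against 33.9%, and 2 of 45, against 9.30%. Of the 49 high positions before the end peak other than nucleotide 3283, all 49 moved by less than 0.1 and 34 by less than 0.01. Such scores are close to their upper limit and hide changes of the end ratio, which are given next. The log2 end ratios of the 49 ran from -0.68 at nucleotide 3441 to 0.65 at nucleotide 3691, with a median of -0.08, against a median of 0.04 over all positions. None of the 49 passed in edgeR (3 at an unadjusted p under 0.05) or in limma, and 2 passed in DESeq2, where 4.35% of all positions did. Without control A 5 of the 49 passed in edgeR, where 6.46% of all positions did, and the ratios ran from -0.99 to 0.61 with a median of -0.19, against 0.01 over all positions. The widest fall among them was at nucleotide 3691, from 0.855 and 0.849 to 0.802 and 0.733, which did not pass (log2 end ratio 0.65, edgeR adjusted p = 0.269) but did without control A (0.61, edgeR adjusted p = 0.0021). This nucleotide scored 0.978 and 0.978 in ESCs and from 0.857 to 0.879 in the Snord89 set. The widest rise, from 0.906 to 0.939, was at nucleotide 4707 beside the end peak.

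With the Snord89 ASO, no position of the region that was high in both of its controls lost 0.1 or more of its score without overlap. The test called 3 of 1577 positions (0.190%), 1 with more and 2 with fewer ends, against 0.297% of 13141 positions over 45S and U2, 0.107% with more and 0.19% with fewer ends. Nucleotide 3258 was the 1 call with an intermediate score. It scored 0.689 in both controls and 0.762 and 0.772 with the Snord89 ASO, as ends went from 11781 and 11077 to 9132 and 7537 (edgeR adjusted p = 0.0344, log2 end ratio -0.41 with SE 0.05). In the Snord101 set it also scored higher with the ASO, 0.664 and 0.610 against 0.730 and 0.685, without passing (log2 end ratio -0.31, edgeR adjusted p = 0.346). The contrast between the ASOs at this nucleotide was 0.10 (edgeR adjusted p = 0.888), so a difference between them was not shown. Its ESC scores were 0.871 and 0.805.

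The other Snord89 calls, nucleotides 3216 and 3812, scored 0 in all 4 libraries of the set and were singled out after their values were seen. At nucleotide 3216 the ratio of ends to flanking mean rose from 1.34 and 1.47 to 2.26 and 2.51 (edgeR adjusted p = 0.0328, log2 end ratio 0.76 with SE 0.09). At nucleotide 3812 it fell from 1.77 and 2.05 to 1.30 and 1.25 (edgeR adjusted p = 0.0481, log2 end ratio -0.59 with SE 0.08). The 3 calls held in 6, 6 and 5 alternatives at nucleotides 3216, 3258 and 3812. With library size and TMM factors in place of the flanking mean, their ratios were 1.32, -0.23 and -0.88 (edgeR adjusted p = 0.104, 0.481 and 0.109). The region's count was 96 without Snord89-set control A (6.09%, against 4.52% of all positions) and 22 without control B (1.40%, against 0.9%), and was 0 without ASO library A or without library B (141 and 120 at an unadjusted p under 0.05).

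By effect size, 34 of 1576 positions (2.16%) were lower by at least 0.1 with the Snord89 ASO without overlap and 19 were higher, against 5.79% and 3.89% over the 45S. Among positions with a high score in both Snord89-set controls 0 of 66 fell by that much, against 3.48%, and at 0.9 in both 0 of 41 did, against 0%. In the edgeR test 185 positions of the region had an unadjusted p under 0.05, against 9.58% of all positions. Of the 50 high positions before the end peak, all 50 moved by less than 0.1 and 40 by less than 0.01. Their log2 end ratios ran from -0.40 at nucleotide 4150 to 0.77 at nucleotide 4044, with a median of 0.01, which was also the median over all positions. None of the 50 passed in edgeR (4 at an unadjusted p under 0.05), DESeq2 or limma. The widest fall in score was at nucleotide 3727, from 0.807 and 0.815 to 0.790 and 0.765, and the widest rise at nucleotide 4472, from 0.806 to 0.830.

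The mean score over the 89 positions at 0.9 or more in both ESC libraries summarised the neuron libraries on positions that neither ASO comparison had chosen. It was 0.599 and 0.556 in the Snord101-set controls and 0.562 and 0.563 with the Snord101 ASO, so control A alone lay apart and the groups overlapped (exact two-sided permutation p = 1). It was 0.523 and 0.522 in the Snord89-set controls and 0.516 and 0.520 with the Snord89 ASO, a difference of -0.00446 without overlap (exact two-sided permutation p = 0.333, the smallest possible). Over the 208 positions at 0.75 in both ESC libraries the Snord89 groups overlapped (-0.001, exact permutation p = 1), and without Snord89 ASO library A the difference was -0.00272. With a window of 2 positions the Snord101 groups did not overlap (-0.0192, exact permutation p = 0.333). The Snord101 difference of -0.0148 became 0.00646 without control A and -0.00388 without nucleotide 3283.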

How the data were processed

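RiboMeth-seq ends were counted in 10 libraries. Per the submitters' processing notes, Trim Galore, cutadapt, Bowtie2 and bedtools were used, with versions and reference sequence not given in the sources used here. The deposited counts are raw read ends per position, 5′ ends for ESCs and 5′ plus 3′ ends for neurons, per the file headers. The authors' deposited score is a fraction; it was recomputed from the counts with weights from 1.0 (nearest) to 0.5 (farthest) and lay within 1e-06 at 100% of positions. The PCR reads carry no stated molecular identifiers, so copies of a fragment cannot be told from separate fragments in the counts.

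Differences between ASO and control libraries of a set were tested in edgeR 4.0.16 (R 4.3.3), fitted on all positions with a mean flanking count of at least 10, adjusted p threshold 0.05, no block. No score minimum was set, because one on the mean removes positions that lose all protection. SE is the absolute log2 ratio over the square root of F. Alternatives used limma 3.58.1 and DESeq2 1.42.0 among others. The procedure was tested on simulated data. Named positions were: interaction calls and their flanks, up to 10 calls per ASO by score difference without overlap, up to 25 positions at 0.9 in all libraries, up to 6 that differed most between ESCs and controls each way, and the 5 highest peaks. Members, lists and rules were chosen with earlier results of these data known. The sequence of the other targeting ASO is not reported here.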

Additional observations from a re-analysis of the deposited data

Results flagged for a closer look

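Nucleotide 3283 was picked out because the effects of the ASOs there differed by a test of the difference itself. The log2 difference of end ratios was 5.39 (SE 0.37, edgeR adjusted p = 0.00186), from 6.01 in the Snord101 set and 0.61 in the Snord89 set, where the value ranged from 0.18 to 0.96 when each library was left out.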

How the results depend on the processing

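Using the median of the flanking counts, dropping the end peak and dropping nucleotide 3283 from the mean were alternatives chosen after seeing the data. For each change given here, the cause was not tested. The Snord101 count of 3 called positions became 0 with a mean score of at least 0.5 (22 at an unadjusted p under 0.05), which leaves out nucleotide 3283. Of all positions tested there, 1.01% were called. It became 1 with a flanking minimum of 100, 1 with library size and TMM factors, 52 with DESeq2 (3.30%, against 4.35% of all positions), 0 with limma (99 at an unadjusted p under 0.05), 2 with the flanking median and 1 with the replicate block, and ranged from 0 to 370 when each library was left out. The Snord89 count of 3 became 1 with a mean score of at least 0.5, 0 with a flanking minimum of 100, 0 with a window of 2 positions, 0 with TMM factors, 26 with DESeq2 (1.65%, against 1.62% of all positions), 0 with limma (162, 158, 191 and 65 at an unadjusted p under 0.05 for the 4 counts of 0) and 32 with the replicate block (2.03%, against 1.69%), and ranged from 0 to 96 when each library was left out. The interaction count of 1 became 2 with a window of 2 positions, 4 with DESeq2 and 0 with limma (57 at an unadjusted p under 0.05), and ranged from 0 to 80 when each library was left out.

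With the replicate block, nucleotide 3283 had a log2 end ratio of 6.04 in the Snord101 set (edgeR adjusted p = 0.00261) and 5.46 in the contrast (edgeR adjusted p = 0.0133). The letters A and B are shared as labels only, and deviations of same-lettered libraries correlated by -0.144 in the Snord101 set and 0.00906 in the Snord89 set over 12840 positions. Over 1576 positions of the region the correlations were -0.249 and 0.0877. The block took 2 of the 3 Snord101 calls and kept the 3 Snord89 calls. At nucleotide 3283, limma gave 6.04 and 5.47 without a call. When each library was left out, the Snord101 ratio ranged from 5.73 to 6.36 and the contrast from 5.05 to 5.83.

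The ESC set of 208 positions became 89 at a score of 0.9 and 410 at 0.5, and the control set of 56 became 168 at 0.5. The mean score over ESC-protected positions changed sign in the Snord101 set without control A, to 0.00646, and ranged from -0.0361 to 0.00646 when each library was left out. Depth limits ESC scores at the 98 and 107 positions with flanking means under 10 ends.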
